A study of Mus musculus with 2 samples.

Results

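WT-only peaks on pseudogenes are sites called with a KLF4 antibody in WT atherosclerotic lesions whose midpoint lies in an annotated pseudogene and that overlap no KO peak by 1 bp. They were taken from the WT peak list on chromosomes 1 to 19 and X, with gene spans of type pseudogene or transcribed pseudogene from NCBI RefSeq GRCm38.p6, which has the coordinates of mm10. There were 391 such peaks of 2251 in the WT list and of 3404 in both lists. They made up 22.9% (95% Wilson interval 21 to 25%) of the 1707 WT-only peaks on these chromosomes and lay on 307 of 10328 pseudogenes (2.97%). The peaks were chosen by the deposited calls of both libraries, so their WT-only status and their place on pseudogenes are not findings. The libraries were ChIP-seq of frozen BCA tissue with an antibody named GKLF, an older name of KLF4, from C57BL/6 mice on a Western diet. One library was labelled WT and one KO, and the KO list held 1153 peaks. The labels give neither the deleted gene nor the cells it was deleted in, and they give no age, transgene or number of animals. The tissue was a mixture that the labels describe as SMC, epithelial cells, macrophages and others. In such a mixture, fewer cells with an occupied site and lower occupancy per cell cannot be told apart. Since there was 1 library per group, no difference between WT and KO has a replicate check and none was tested.

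Pseudogenes are disabled copies of genes. Processed pseudogenes arise when a spliced messenger RNA is copied into DNA and inserted elsewhere in the genome, so they lack the introns of the parent gene and usually its promoter. Abundantly expressed housekeeping genes, above all those of ribosomal proteins, have left many such copies in mammals. KLF4 is a zinc finger transcription factor that binds CACCC elements and related GC-rich boxes, and in smooth muscle cells it is known as a repressor of contractile genes.

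The sequences of the peaks themselves were not used here, and no peak overlapped one of the 32851 RefSeq promoter windows. Instead, 250 bases before a transcript start are given for the parents of the 4 highest-scoring copies with a parent identified by name. They are given since these parents also held WT peaks of their own. For a parent with several starts, the window shown is that of the start nearest to a WT peak. Capitals mark the letters CACCC or GGGTG (the same motif on either strand) and GGGCGG or CCGCCC, with overlapping matches counted. The windows lie at chr4:119294514-119294763 on the minus strand (Ybx1), chr7:24884663-24884912 on the plus strand (Rps19), chr10:128493010-128493259 on the minus strand (Myl6) and chr11:120348496-120348745 on the minus strand (Actg1), all in GRCm38.p6 and written 5′ to 3′ on the gene's strand.
Ybx1: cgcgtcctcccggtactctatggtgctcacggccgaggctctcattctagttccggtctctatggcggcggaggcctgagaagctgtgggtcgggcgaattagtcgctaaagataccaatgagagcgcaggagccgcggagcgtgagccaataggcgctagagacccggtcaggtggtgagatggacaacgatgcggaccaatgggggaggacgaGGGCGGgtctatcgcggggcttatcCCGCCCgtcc
Rps19: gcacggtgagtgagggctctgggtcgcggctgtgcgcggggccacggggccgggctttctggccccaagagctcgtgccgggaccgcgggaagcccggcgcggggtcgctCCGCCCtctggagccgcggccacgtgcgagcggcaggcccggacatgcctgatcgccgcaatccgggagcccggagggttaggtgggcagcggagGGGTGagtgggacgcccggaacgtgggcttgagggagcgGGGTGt
Myl6: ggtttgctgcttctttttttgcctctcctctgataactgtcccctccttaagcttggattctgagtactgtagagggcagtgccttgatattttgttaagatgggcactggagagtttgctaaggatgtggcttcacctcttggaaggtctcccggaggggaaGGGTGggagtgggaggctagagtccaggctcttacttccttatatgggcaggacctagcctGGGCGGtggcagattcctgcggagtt
Actg1: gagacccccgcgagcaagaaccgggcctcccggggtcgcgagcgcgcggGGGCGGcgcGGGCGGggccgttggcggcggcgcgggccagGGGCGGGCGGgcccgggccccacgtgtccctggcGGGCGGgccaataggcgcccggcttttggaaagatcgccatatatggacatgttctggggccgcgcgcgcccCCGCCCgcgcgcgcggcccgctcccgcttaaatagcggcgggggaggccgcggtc
The Ybx1 window holds 0 matches to CACCC or GGGTG and 2 to GGGCGG or CCGCCC, the Rps19 window 2 and 1, the Myl6 window 1 and 1, and the Actg1 window 0 and 6. No WT peak overlapped any of the 4. The WT peak of the parent nearest to the printed window's start site had its midpoint 186.5 bp downstream of it in Ybx1, 266.5 bp in Rps19, 321.5 bp in Myl6 and 779.5 bp in Actg1. The Ybx1, Rps19 and Myl6 windows lie inside the RefSeq span of the gene, and Rps19 and Myl6 have another start further upstream. Measured from the first start of the gene, these peaks lay 11.3% along Rps19 and 39.6% along Myl6. Among all windows, 52.0% held CACCC or GGGTG and 32.7% GGGCGG or CCGCCC. Among the 64 windows of 51 parents of copies with a peak, these shares were 67.2% (55.0 to 77.4%) and 56.2% (44.1 to 67.7%). Such matches are letters in a window and were not measured as binding.

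The score and the absence of a KO partner chose the peaks, so both are given as description. Each score is the authors' own value for the peak, read as 10 times the negative log10 of its p-value, and scores are compared within a list only. Of all WT peaks, 84.2% overlapped no KO peak, which is the rule itself. Scores ran from 50 to 820.0 with a median of 99.7 (quartiles 72 and 157.8). The median was 84.9 for the 1092 other WT-only peaks in protein-coding spans and 68.7 for the 224 outside coding spans and pseudogenes, while the 278 WT peaks shared with KO had a median of 231.1. The pseudogene peaks thus lay between the other WT-only peaks and the shared peaks, as the plot of scores by place shows. Scores of 200 or more were held by 15.1% (11.9 to 19%) of the pseudogene peaks and by 11.2% (9.44 to 13.2%) of the WT-only peaks in coding spans, and their intervals overlap. Widths were alike, with medians of 155 bp on pseudogenes and 154 bp in coding spans, against 226.5 bp for shared peaks. These groups were compared by their values only.

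**Figure D1:**
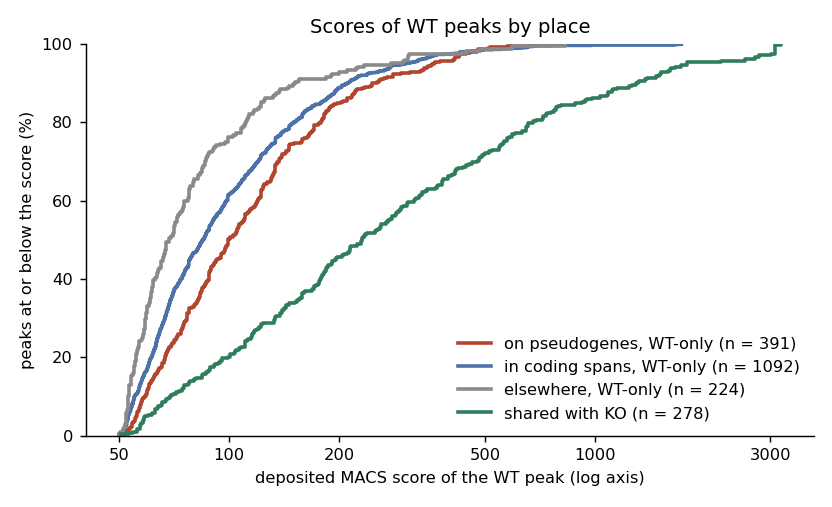
Cumulative share of WT peaks (y axis, percent) at or below a deposited MACS score (x axis, log scale), for WT-only peaks on pseudogenes (n = 391), WT-only peaks in protein-coding spans (n = 1092), WT-only peaks elsewhere (n = 224) and WT peaks shared with KO (n = 278). The curve of the pseudogene peaks (median 99.7) lies to the right of both other WT-only curves over the quartiles and to the left of the shared peaks (median 231.1). At the top the order changes, since the highest scores were 820.0 on pseudogenes, 1720 in coding spans and 826.9 elsewhere.

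The KO list is set by the rule to hold no call under these peaks. On the same chromosomes, 14 of 718 KO-only peaks lay on pseudogenes (1.95%, 1.17 to 3.25%), with scores of 51.0 to 61.1, and 0 of the 14 lay on one of the 2.97% of pseudogenes with a WT-only peak, a share at which few or none of 14 would. Of the 278 shared WT peaks, 11 lay on pseudogenes. The median gap from a WT-only pseudogene peak to the nearest KO peak was 965 kb, and 9 of the 391 lay within 10 kb of one. At the edge of the overlap rule, the closest were peaks in Gm20590 (chromosome 13, 74530370 to 74530437, score 80.7) and Pisd-ps1 (chromosome 11, 3126910 to 3127741, score 135.7), each 64 bp from a KO peak. The smallest overlap among the shared WT peaks on pseudogenes was 84 bp. At the edge of the place rule, WT-only peaks whose midpoint missed a span by 6 bp lay beside Gm4202 (score 199.9) and Zfp36l1-ps (score 78.5). At the lower score limit of the list stood the peaks in Gm16378 (chromosome 8, 122841710 to 122841866, score 50), Gm17087 (chromosome 17, 8566474 to 8566674, score 50.9) and Gm3756 (chromosome 9, 31936425 to 31936613, score 52.0).

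A few of the peaks lay in long spans close to sites called in both libraries. Of the 307 pseudogenes, 16 were longer than 5000 bp, and 22 of the peaks lay in them and in no shorter pseudogene span. Of the 11 shared WT peaks on pseudogenes, 8 lay in 4 of these long spans, Gm20590, Pisd-ps1, Pisd-ps2 and Speer4cos. Speer genes are a rodent family with many copies in the genome, and Pisd encodes the mitochondrial enzyme phosphatidylserine decarboxylase. Gm20590 held 2 WT-only peaks (scores 89.9 and 80.7) among 4 shared ones (205.5 to 279.0) between positions 74528464 and 74530604 of chromosome 13. Pisd-ps2 on chromosome 17 held WT-only peaks scoring 54.2 and 53.8 beside a shared one of 269.1. Pisd-ps1 held a WT-only peak of 135.7 and a shared one of 117.0, and Speer4cos held WT-only peaks of 120.1 and 57.9 and shared ones of 99.4 and 57.4. The shared calls thus scored higher in Gm20590 and Pisd-ps2, and the highest call in Pisd-ps1 and Speer4cos was WT-only. Speer8-ps1, with 4 peaks scoring 62.6 to 86.2 in a span of 33248 bp, and B230303A05Rik, with 2 peaks in 209872 bp, were long as well and held no shared peak.

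Beside pseudogenes with spans of up to 5000 bp that held a peak, few further WT-only peaks lay in the flanks. The 291 such pseudogenes held 369 WT-only peaks in 357.8 kb, counted as 370 since a peak in 2 of the spans counts for both. The 2500 bp on either side of each pseudogene held 2 WT-only peaks in 1455 kb. The inside density, 103.4 peaks per 100 kb, is set by the rule that chose them. The flank density of 0.14 per 100 kb is not, and it compares with 0.065 per 100 kb over these chromosomes as a whole. Over all 391 peaks, long spans included, 23 (5.88%) reached beyond the span, and the midpoint lay a median of 312.5 bp from the nearer end. Both values are in part fixed by the rule, which places each midpoint inside the span. By place within the span, 11% (8.27 to 14.5%) of midpoints fell within 10% of the length from an end, where 20% of a span lies, and 22.5% (18.6 to 26.9%) fell in the middle 20%.

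Some of the pseudogenes lie within protein-coding genes. For 89 of the 391 peaks (22.8%) the midpoint also lay in a protein-coding span, in 79 distinct genes. Of these host genes, 1 held a WT peak elsewhere, Tmcc1, with a score of 65.8. That is 1.27% (0.224 to 6.83%). Of all 21627 protein-coding genes, 3.47% held a WT peak when WT-only peaks on pseudogenes were not counted, which lies within the interval, and 3.83% when they were. A KO peak lay in 5 of the 79 hosts (6.33%, 2.73 to 14.0%), compared with 1.65% of all protein-coding genes. Span lengths of hosts and other genes were not compared. The pseudogene peak with the highest score was of this kind. It covered nearly all of Gm12481 (494 bp), in the span of Fam221b on chromosome 4 (43663853 to 43664403, width 551 bp, score 820.0).

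Among the 15 highest-scoring pseudogenes, 4 had an identified parent. The parent of a pseudogene was read from its symbol or a synonym in the RefSeq table (Ybx1-ps2 from Ybx1), which gave a parent for 75 of the 307 pseudogenes and for 916 of all 10328. The other 232, of which 222 have Gm symbols, were not matched to a parent by this rule. A few of their symbols name a gene family, such as Eif5al3-ps (215.3), Eif4a-ps4 (166.9), Hnrnpa1l2-ps (129.9) and Rps3a3 (76.9), and these are not counted in any class of parent. Ybx1-ps2 (chromosome 6, 37685637 to 37687305) held a peak of score 661.7 at 37686681 to 37686994 and a second of 59.7. Its parent Ybx1, which encodes a DNA- and RNA-binding protein, held 3 WT-only peaks scoring 699.9, 581.1 and 266.6. Parent and copy were therefore both near the top of the list.

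Rps19-ps6, a copy of the small-subunit ribosomal protein gene Rps19, had a peak of 509.8 on chromosome 12 (110898066 to 110898227), inside the span of Tecpr2, while the single peak of Rps19 itself scored 133.9. Gm8894, which lists the myosin light chain gene Myl6 as a synonym, had a peak of 477.2 on chromosome 14 (55420476 to 55420656), and Myl6 had a peak of 632.3. Actg-ps1, a copy of the cytoplasmic gamma actin gene Actg1, held 3 peaks scoring 444.4, 129.4 and 59.1 on chromosome 8, and Actg1 held 3 scoring 241.9, 136.1 and 55.6. All 4 of these parents thus had WT peaks, and the copy had the higher top score for Rps19 and Actg1 only.

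The remaining high-scoring pseudogenes were not matched to a parent and are given by position. Gm11560 (chromosome 11) held 3 adjacent peaks between 99932350 and 99933165 with scores of 572.7, 218.7 and 120.4. Gm7964 (chromosome 7) held 3 scoring 516.7, 134.2 and 121.6, and Gm13456 (chromosome 2) held 3 scoring 426.1, 409.4 and 245.2. The ranking is by the highest peak of each pseudogene, which favours those with several peaks. Gm6548, a transcribed pseudogene in the span of Eif2ak2 on chromosome 17, held peaks of 475.2 and 184.2, and Gm7308 (chromosome 6) held 3 scoring 415.2, 109.6 and 87.2. Single peaks stood in Gm5526 (476.9), Gm3788 (454.8), Gm5236 (423.9), Gm6767 (423.8) and Gm6900 (415.2). There were 3 peaks that lay in 2 pseudogene spans, and these are counted for both. Over all 307 pseudogenes, 244 held 1 peak, 42 held 2, 18 held 3 and 3 held 4. Those with 4 were Gm4366 (chromosome 7, scores 364.9, 80.2, 74.1 and 67.5, in a span of 1422 bp), Gm12715 (chromosome 4, scores 167.1, 106.8, 97.3 and 68.8, in a span of 1905 bp) and Speer8-ps1.

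Transcribed pseudogenes, which RefSeq marks as having RNA evidence, made up 24 of the 307. Of all 476 transcribed pseudogenes, 5.04% (3.41 to 7.39%) held a WT-only peak, and of the 9852 others 2.87% (2.56 to 3.22%). Next to Gm6548, the highest were Ubb-ps (264.6), a copy of a polyubiquitin gene, Gm9385 (235.0), Gm5915 in the span of Ctcf (216.4) and Oaz1-ps (183.7), a copy of the ornithine decarboxylase antizyme gene. By length, the share of pseudogenes with a peak was 1.81% up to 500 bp, 2.51% over 500 and up to 1000 bp, 5.06% (4.27 to 5.98%) over 1000 and up to 2000 bp, 2.88% over 2000 and up to 5000 bp and 1.65% (1.02 to 2.66%) beyond. The share was thus highest at intermediate lengths and did not grow with the span.

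Parents of pseudogenes with a WT-only peak often held WT peaks themselves. Of the 75 with an identified parent, 44 had a parent with a WT peak in its span (58.7%, 47.4 to 69.1%). Of the 841 pseudogenes with an identified parent and no such peak, 91 did (10.8%, 8.90 to 13.1%), and the share of all protein-coding genes is the 3.83% given above. That parents of such pseudogenes often hold a WT peak was known when the members were chosen, so the excess is not independent support. Several copies share a parent, and counted once each, 29 of 56 parents held a WT peak (51.8%, 39.0 to 64.3%), compared with 24 of the 348 other identified parents (6.90%, 4.68 to 10.1%). In 1 of these 24, Tcea1, the only WT peak is a WT-only peak on the pseudogene Gm6104 within its span, and without it the count was 23 (6.61%) and the 91 above became 90 (10.7%). Counted from the parent's side, a WT-only peak was found in 44 of 135 copies of a parent with a WT peak (32.6%, 25.3 to 40.9%) and in 31 of 781 copies of a parent without one (3.97%, 2.81 to 5.58%). Over all 916 the share was 8.19%.

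All 57 WT peaks in the 29 parents were WT-only, as were 84.2% of all WT peaks. A KO peak lay in 0 of the 56 parents, and with a background of 1.65% of all protein-coding genes few or none would be found among so few. The 57 peaks had a median score of 97.3 and a median width of 147 bp. For 54 of them RefSeq gives a start site and strand. Peaks were counted in a parent by a midpoint in its span, which largely fixes a place downstream of a start. Their distances from the nearest start ran from 154.5 bp to 115 kb (median 2827 bp), and 15 lay within 1 kb of it. Without regard to the span, 0 of the 64 promoter windows of the parents overlapped a WT peak, and 5 WT peaks had their midpoint within 2500 bp outside the spans of the 56 parents. Over the length of the gene, from its first start to its far end, the median place was 62.8% (quartiles 30.1 and 87.0%). Within the spans, the peaks thus lay at the beginning of some genes and toward the far end of others.

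The top scores of parent and copy could be compared only where both had a call, which left 29 of 56 parents. Both scores therefore lie at or above the list's floor of 50. Where a parent had several copies with a peak, the highest was used. Under these limits a ratio near 1 does not show a link between parent and copy, and none was tested. Across the 29 parents with a WT peak, the ratio of the highest score on the copies to that in the parent had a median of 1 (quartiles 0.75 and 1.89, range 0.19 to 4.48), and the copy was higher in 14 of 29. The scores rose together only loosely (Spearman rho 0.31, and Pearson r 0.43 on log10 scores, n = 29 parents in 1 library). Near-equal pairs included Ubb (265.0) and Ubb-ps (264.6), Rpl10a (203.2) and Rpl10a-ps1 (204.2), and Pgk1 (84.4) and Pgk1-rs7 (84.3). Equal scores were common in any case, since 798 of the 2251 WT peaks had a score that at least another WT peak also had. At the other end, Tubb3 scored 426.0 and Tubb3-ps1 81.4, and Rps18 scored 77.7 while Rps18-ps5 scored 347.9. The highest copy without a WT peak in its parent was Gapdh-ps14 on chromosome 8 (41609149 to 41609240, score 412.1), from the glycolytic gene Gapdh. The median top score was 122.1 for the 44 copies of a parent with a peak, 88.3 for the 31 copies of a parent without one, and 111.3 for the 232 with no identified parent.

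**Figure D2:**
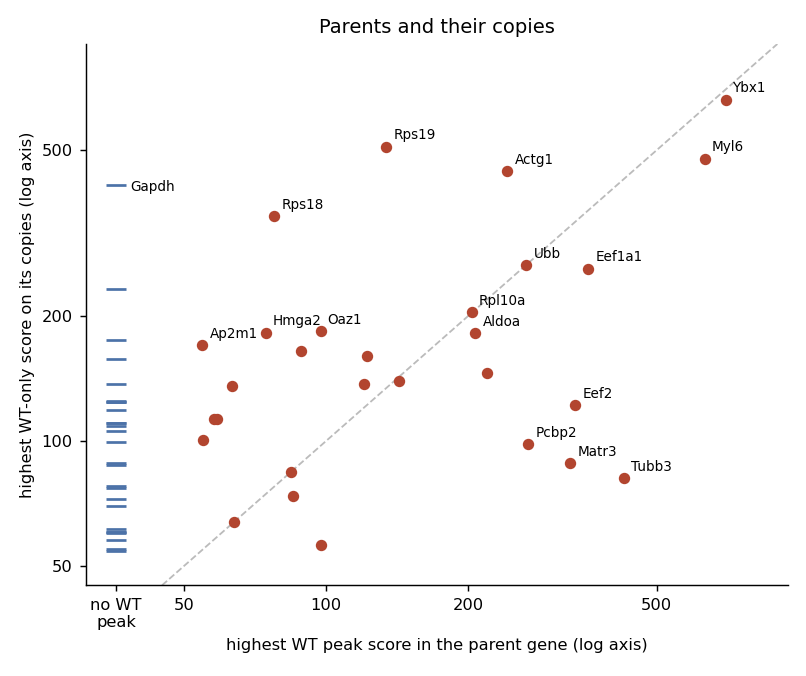
Highest WT-only peak score on the copies of a parent (y axis, log scale) against the highest WT peak score in the parent gene (x axis, log scale), 1 point per parent for 29 parents, with a dashed line of equality. Dashes at the left are the 27 parents without a WT peak, of which Gapdh has the highest-scoring copy (412.1). The points lie on both sides of the line, 14 of 29 above it.

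By class of the matched parent, ribosomal proteins gave the most peaks and the cytoskeleton the highest share of copies. The first depends on the setting: ribosomal copies held 17 peaks without those in coding spans, level with the 17 of parents outside the lists, and 13 with scores of 100 or more, where the cytoskeleton held 10. Pseudogenes of ribosomal protein genes held 27 peaks on 27 of 327 copies (8.26%, 5.74 to 11.7%), which is close to the 8.19% of all copies with a named parent. They came from 13 parents, of which 6 held a WT peak, compared with 12 of all 65 parents in the class. Besides the Rps19 and Rps18 copies, the highest were Rpl10a-ps1 (204.2) and Rps12-ps19 (174.5). Cytoskeletal copies held 14 peaks on 8 of 15 (53.3%, 30.1 to 75.2%), and 6 of their 8 parents held WT peaks. Of all 11 cytoskeletal parents, 8 held one, so the 6 of 8 is close to the share of the whole class. Next to Gm8894 and Actg-ps1, these were led by Krt8-ps (231.3), from the keratin 8 gene, and Tpm3-rs7 (157.2), from a tropomyosin gene. Among the 8 cytoskeletal parents of copies with a peak, Krt8 and Tpm3 held no WT peak.

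Smaller classes had wide intervals. Translation factor copies with a matched parent held 4 peaks on 3 of 12 (25%, 8.89 to 53.2%). They were Eef1a1-ps1 (259.8 and 95.4) and Eef2-ps2 (122.1), from elongation factor genes whose top scores were 358.4 and 336.5, and Eif3s6-ps2 (87.5), whose parent Eif3e had none. Copies of genes of glycolysis and related metabolism held 5 peaks on 5 of 22 (22.7%, 10.1 to 43.4%), with Aldoa-ps4 (181.6), Ldhb-ps (124.8) and Pgk1-rs7 after Gapdh-ps14. RNA-binding proteins of the list with a matched parent were represented by Ybx1-ps2 and by Gm12186 (98.3 and 89.6), which lists Pcbp2-rs as a synonym and whose parent Pcbp2 held 6 WT peaks. Ubiquitin and proteasome copies were Ubb-ps, Ube2n-ps1 (137.2) and Psma5-ps (108.4), 3 of 14.

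Chaperone and folding copies held 7 peaks on 6 of 75 (8%, 3.72 to 16.4%), led by Cct3-ps1 (118.7), a copy of a chaperonin subunit gene, and Hspd1-ps3 (105.8). Of their 4 parents 0 held a WT peak, compared with 1 of all 9 parents in the class. The list of chromatin and nuclear proteins held high-mobility group b and n, histone and a few other families, and 1 of its 24 copies had a peak, Ptma-ps2 (56.2), from the prothymosin alpha gene. Other nuclear proteins are outside that list and count among the other parents, such as Hmga2-ps1 (182.3), Hdac1-ps (60.4), Morf4l1-ps1 (60.2) and Taf9-ps (57.8). No copy with a peak was found among 21 of mitochondrial respiratory chain and carrier genes, 12 of iron and redox genes, 7 of immune and receptor families and 6 of zinc finger genes. With so few copies, shares of up to 15.5, 24.2, 35.4 and 39.0% lie within the intervals. No pseudogene was named after a gene of the matrix and contractile class. Of the 20 copies with other parents, the highest were Oaz1-ps, Hmga2-ps1, Ap2m1-ps (170.3) and Tpt1-ps3 (160.3). No class was tested against another.

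**Figure D3:**
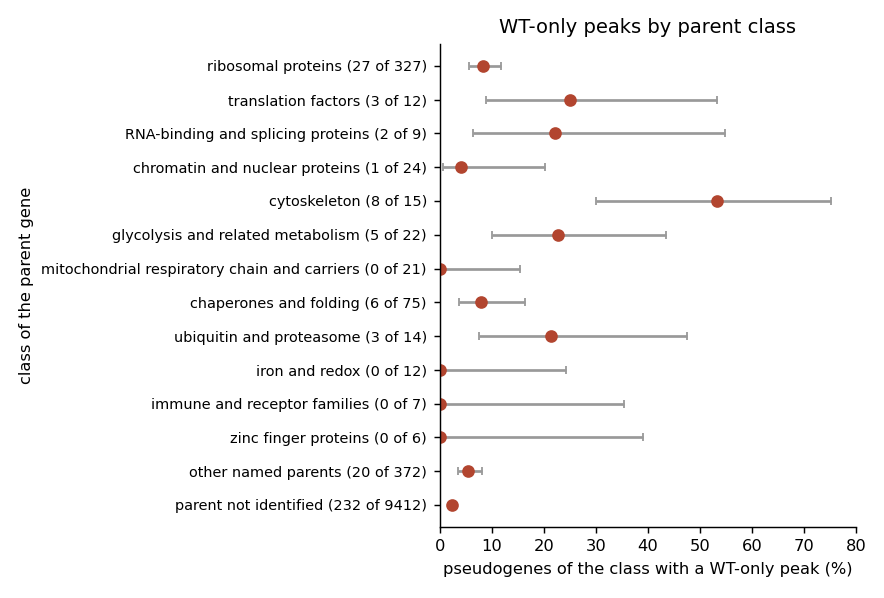
Share of pseudogenes with a WT-only peak (x axis, percent) by class of the parent gene (y axis, with the counts), with 95% Wilson intervals as bars. Cytoskeletal copies stand highest at 53.3%, ribosomal protein copies at 8.26% and copies without a matched parent at 2.46%.

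Copies of 1 parent did not all carry a peak. Rps19 had the most, 6 of its 13 named copies, with scores of 509.8 (Rps19-ps6), 146.0 (Rps19-ps1), 122.1 (Rps19-ps2), 99.2 (Rps19-ps10), 82.0 (Rps19-ps3) and 53.4 (Rps19-ps4). Rps18 had 3 of 5, with 347.9, 163.5 and 131.9 in Rps18-ps5, Rps18-ps3 and Rps18-ps6. Rpl31 had 3 of 23, Rpl19 3 of 13 and Ppia, the gene of the prolyl isomerase cyclophilin A, 3 of 54. The large Ppia family thus had a small share and the small Rps18 family a large one. Rpl31 held a WT peak of 57.8, and Rpl19 and Ppia held none. Parents with many named copies and no copy with a peak included Rpl21 (15 copies), Rpl7a (14), Rpl23a (14), Rps2 (12), Hmgb1 (12) and Rpl30 (10), and of these Rpl30 alone held a WT peak (78.4).

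**Figure D4:**
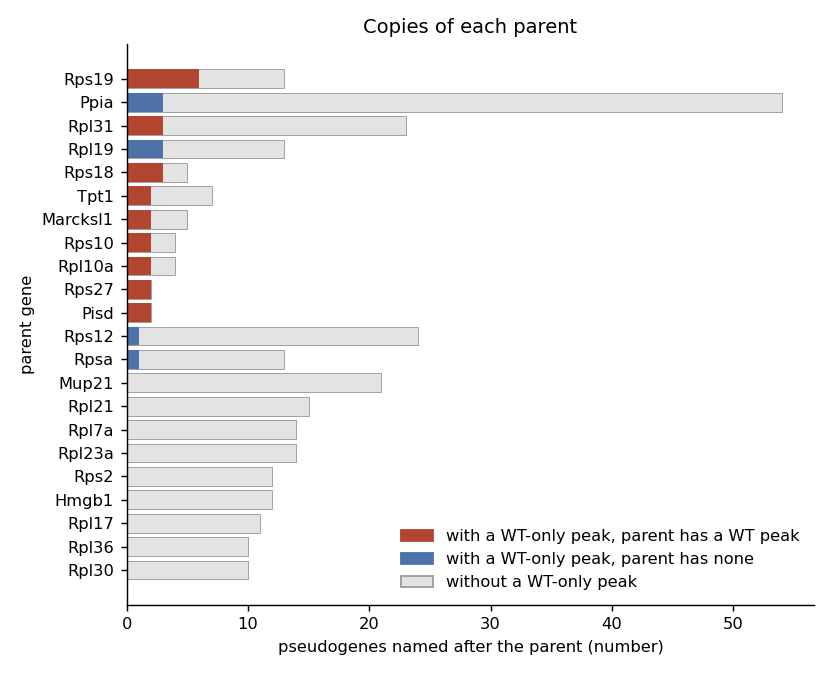
Number of pseudogenes named after a parent (x axis) for each parent with 2 or more copies that hold a WT-only peak or with 10 or more copies (y axis). Coloured parts are copies with a peak, red where the parent has a WT peak and blue where it has none, and grey parts are copies without. Rps19 has 6 of 13 and Ppia 3 of 54.

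In some families the peaks lay at like distances from an end of the copies, and in others they did not. The table gives no strand for pseudogenes, so place was measured as the distance of the peak's midpoint from the nearer end of the span. This measure is bounded by the length of the span, and peaks at opposite ends of different copies would give like values. Part of any likeness therefore follows from the measure. It was 114, 114.5 and 87 bp in the 3 Rps18 copies, whose spans are 523 to 524 bp long. In the 6 Rps19 copies it was 35 to 96 bp in spans of 426 to 510 bp, and in 4 of these the peak reached past the end. In the Rps10 copies it was 175.5 and 176.5 bp. The distances were larger in the longer spans of the 3 Rpl19 copies (205 to 277.5 bp in 700 to 704 bp) and the 3 Ppia copies (239 to 332.5 bp in 735 to 744 bp). In the 3 Rpl31 copies it was 127.5 to 195.5 bp. Distances differed more between the copies of Tpt1 (213.5 and 91.5 bp) and of Marcksl1 (242 and 547 bp). Marcksl1 encodes a MARCKS-related actin-binding protein and Tpt1 the translationally controlled tumour protein. The likeness in Rps18 and Rps10 was noticed in these values and has no test.

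**Figure D5:**
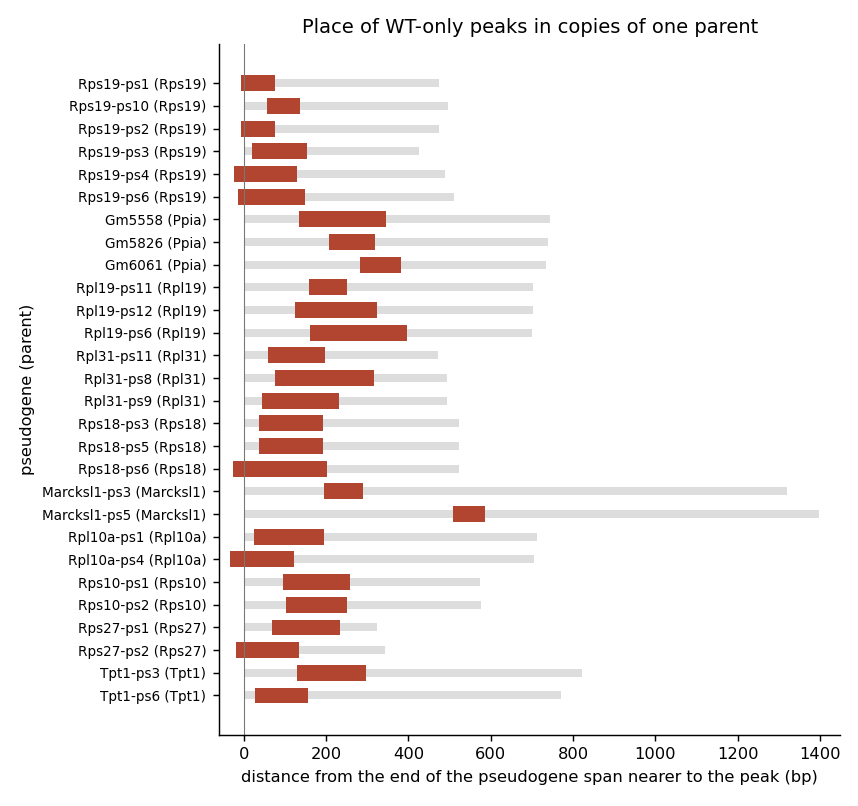
Peaks (red) on pseudogene spans of up to 2000 bp (grey, to scale) for parents with 2 or more copies that hold a WT-only peak, with the distance in bp from the span's nearer end on the x axis and the pseudogene and its parent on the y axis. Each copy is turned so that its peak lies toward the left, since its strand is not known here. The 3 Rps18 peaks have midpoints 87 to 114.5 bp from the end and the 6 Rps19 peaks 35 to 96 bp.

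As a check of the tissue, marker genes of cell types were looked up, although a peak measures antibody signal and not expression. The labels name smooth muscle cells, epithelial cells and macrophages, but not the endothelial cells and fibroblasts that were also looked up. The strongest was the fibroblast marker Col1a1, with 11 WT peaks and a top score of 763.6, the only 1 of 4 fibroblast markers with a peak. A WT peak lay in 2 of 5 smooth muscle markers (Acta2, 59.6, and Tagln, 67.5) and 1 of 4 epithelial markers (Krt14, 68.2). Among macrophage markers 0 of 5 held WT peaks, as did 0 of 4 endothelial markers, while 1 of all 22 markers held a KO peak. The shares over all protein-coding genes were 3.83% for WT and 1.65% for KO. At such shares few or none would be found in sets this small. The macrophage and endothelial counts therefore do not tell whether these cells were present. The nearest peak to Klf4 lay 2625 kb away in WT and 2055 kb in KO, and the genotype labels could not be checked there.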

How the data were processed

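KLF4 ChIP-seq peaks of 1 WT and 1 KO library were analysed as deposited. Bowtie 1.0, SAMtools 0.1.18 and build mm10 are named in the submitters' processing notes, and MACS is named in each deposited peak's name, with 1 list per library. The sources used here do not give the MACS version, control and settings, or how reads with several matches in the genome were treated. The score is the authors' value per peak and was used within a list only. The lists hold no read counts, so depth is unknown, and a missing peak means that none was called.

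Peaks overlapping by 1 bp were called shared. Gene spans, types and synonyms came from RefSeq GRCm38.p6, and start sites and promoter sequences from RefSeq tables of the same build. A parent was a protein-coding gene named in a pseudogene's symbol or synonyms with -ps or -rs, or listed as a synonym. Wilson intervals (95%) cover counting error over peaks or genes only, and neighbouring peaks and copies of a parent are not independent. With 1 library per group no test was run. The procedure was tested on simulated lists. Intervals were computed with scipy 1.17.1, tables with pandas 2.3.3 and numpy 2.4.6, and plots with matplotlib 3.10.9, all under Python 3.11.15.

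The members and gene lists were chosen with earlier results of these data known. Named are the 15 highest-scoring pseudogenes, the 5 with most peaks, up to 4 per parent class, parents with 3 or more copies holding a peak, the 5 highest transcribed ones and those at the limits of the rule. Others are named to complete a count or a pair and were chosen after their values were seen.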

Additional observations from a re-analysis of the deposited data

How the results depend on the processing

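The count of 391 peaks stayed between 302 and 395 under 8 of 10 settings of the overlap, the place rule, the pseudogene type, coding spans, the Y chromosome and span length (the last chosen after seeing the data). It was 197 with scores of 100 or more in both lists and 237 with the WT list reduced to the size of the KO list, both of which keep fewer peaks by construction. Of the pseudogenes with a peak and an identified parent, 58.7% had a parent with a WT peak. This share lay between 51.8%, with each parent counted once, and 62.9% under 6 of 7 settings. With scores of 100 or more it was 40% (16 of 40), against 5.59% (49 of 876) for pseudogenes without a WT-only peak of that score. It was 55.1% without the Rps19 copies. Requiring scores of 100 or more left 13 peaks on copies of ribosomal proteins, 2 of translation factors, 1 of RNA-binding proteins, 0 of chromatin proteins, 3 of glycolysis, 2 of chaperones, 10 of other named parents and 153 without a parent. Counting pseudogenes in place of peaks gave 2 for RNA-binding proteins and 8 for the cytoskeleton. Leaving out peaks in coding spans gave 17 for ribosomal proteins. No paired analysis was possible because each group had 1 library and no test was run. The identity of 232 parents and the sequence under each peak were not analysed here, and unknown depth limits what a missing KO peak shows.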

Other observations

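Some parents held WT peaks while none of their named copies did. There were 23 such parents when WT-only peaks on pseudogenes within a parent's span were not counted, among them the cytoplasmic beta actin gene Actb (4 WT peaks, top score 424.4, 1 named copy), Serf2 (2 peaks, 428.7, 1 copy), the translation initiation factor gene Eif1 (3 peaks, 221.4, 3 copies) and the zinc finger mRNA decay factor gene Zfp36l1 (3 peaks, 165.9, 1 copy). The copy Zfp36l1-ps is the pseudogene on chromosome X that a WT-only peak at 38180524 to 38180682 missed by 6 bp. These genes were chosen after their values were seen.

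By chromosome, the share of pseudogenes with a WT-only peak ran from 1.58% (0.803 to 3.09%) on chromosome 14 to 5.68% (3.35 to 9.47%) on chromosome 19, and on X it was 1.98% (1.29 to 3.04%). The Y chromosome, left out by the rule, held 2 WT-only peaks on its 101 pseudogenes.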
